A study of Mus musculus with 12 samples.

Results

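The 10 genes described here carry out major histocompatibility complex (MHC) class I antigen presentation in the mouse. They were chosen by name with earlier results of these data known, so counts over them are a description. All 10 were matched by Ensembl identifier in the GENCODE M21 annotation and found among the 30630 genes listed for every tumor. The data are RNA sequencing profiles of 12 subcutaneous CT-26 tumors, taken from 6 control mice and 6 mice that swam. CT-26 cells are a colon carcinoma line of BALB/c origin, and every mouse was a male BALB/c animal, bought at 4 to 6 weeks of age, that received CT-26 cells in Matrigel under the skin of the right flank. The swimming group was trained in water for 3 weeks, the control group was not, and the tumors to be sequenced were picked at random from each group. Expression was deposited as FPKM, fragments scaled to gene length and to the number of mapped fragments. A tumor of a single injected line also holds host cells, and in these bulk samples more cells of one type and more RNA per cell cannot be told apart.

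Class I molecules show peptides from inside the cell to CD8 T cells. The proteasome cuts proteins into peptides, the transporter formed by TAP1 and TAP2 carries the peptides into the endoplasmic reticulum, and tapasin (Tapbp) holds the transporter near the empty class I molecule, a heavy chain paired with beta 2-microglobulin (B2m). Interferon gamma replaces the 3 constitutive catalytic subunits of the proteasome, encoded by Psmb5, Psmb6 and Psmb7, with the immunoproteasome subunits encoded by Psmb8, Psmb9 and Psmb10. Nlrc5 is a transactivator of class I genes. Tumors that lose these genes can escape CD8 T cells.

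In the 12 tumors the FPKM values of a tumor summed to between 380138.5 and 407109.1, and between 22293 and 23974 genes were above 0. FPKM values do not keep the number of reads, so absolute depth is unknown. The spacing of the lowest values put the depth of control 2 at 0.694 of control 1 and that of the other tumors at 0.871 to 1. The groups were compared by limma on log2(FPKM + 1) over 19018 genes, each at 0.1 FPKM or more in 6 or more tumors. No gene of the 19018 had an adjusted p below 0.05 (0%), the smallest adjusted p being 0.204, while 5.56% had an unadjusted p below 0.05 (3.11% higher and 2.46% lower in the swimming group, limma). All 10 presentation genes passed the filter on low values. Of the colon epithelial markers, Krt20 (154 ± 32.2 FPKM in control tumors), Krt8 and Krt18 were present, while Epcam, Cdx2, Vil1, Cdh1, Cdh17 and Muc2 were under 0.5 FPKM in every tumor, so most defining markers of colon epithelium were near absent.

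All 10 genes had a higher mean in the swimming group, by 0.13 to 0.62 on the log2 scale with a median of 0.32, where 51.7% of all genes tested had a log2 fold change above 0 and the median over all genes was 0.00387. Psmb8 had the largest difference and H2-D1 the smallest. Psmb8, Psmb9, Psmb10, Tap2 and Tapbp, 5 of the 10 genes, were higher at an unadjusted p below 0.05 and 0 were lower. Of all genes tested, 3.11% were higher and 2.46% lower at that p (limma). No gene of the 10 passed the adjusted threshold in limma, with adjusted p from 0.889 to 0.899. The groups overlapped in all 10 genes, whereas 0.0789% of all genes tested were higher in every swimming tumor than in any control tumor. In H2-K1, B2m, Tapbp, Psmb8 and Nlrc5 at least 5 of the 6 swimming tumors were above every control tumor, a pattern found in 0.978% of all genes tested.

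**Figure D1:**
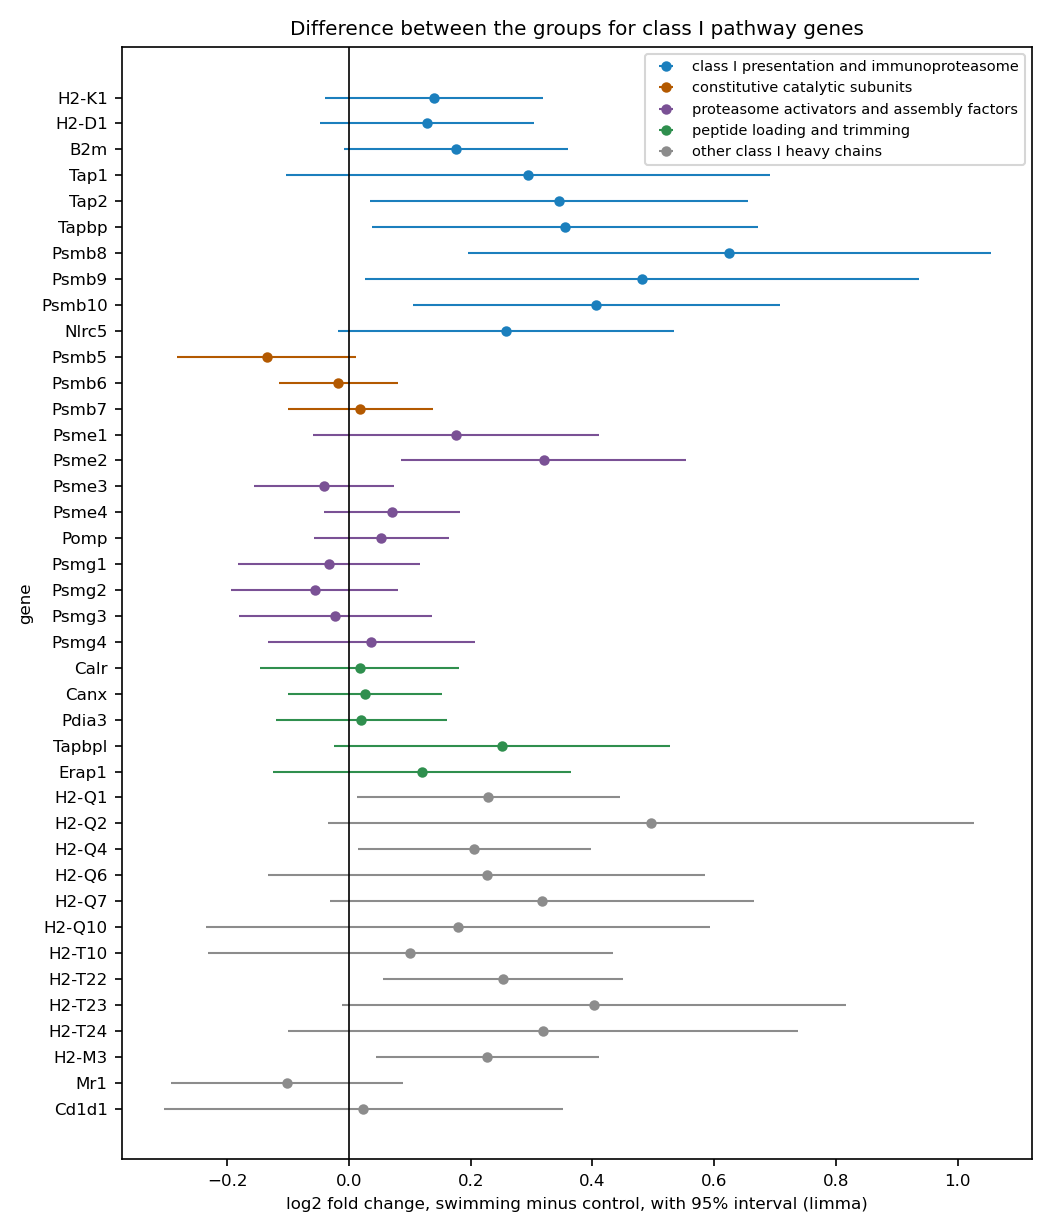
The log2 fold change (swimming minus control) is plotted on one axis, each point with its 95% interval from limma. Shown are the 10 genes, the constitutive subunits, proteasome activators and assembly factors, peptide loading and trimming genes, and other class I heavy chains tested. All 10 presentation genes lie above 0, with Psmb8 at 0.62 and H2-D1 at 0.13, while the constitutive subunits lie between -0.14 and 0.02.

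Single tumors shaped these counts. Swimming 1 was the lowest swimming tumor in all 10 genes, and control 5 was the lowest control tumor in 9 of the 10, the exception being Psmb10, which was lowest in control 2. The median deviation from the mean of the 12 tumors over the 10 genes was -0.54 in control 5 and -0.40 in swimming 1 on the log2 scale. Swimming 3, 4, 5 and 6 were above the mean of the 12 tumors in all 10 genes, and swimming 5 was the highest swimming tumor in 6 of them. Without swimming 1, all 10 genes had an unadjusted p below 0.05 (4.53% of all genes tested were then higher at that p), with adjusted p from 0.164 to 0.569 (limma, 0.0105% of all genes tested were then below an adjusted p of 0.05) and a median log2 fold change of 0.45. Without control 5, 2 of the 10 had an unadjusted p below 0.05 (2.12% of all genes tested), and the median log2 fold change was 0.22. The count was also 2 of the 10 without swimming 3 (2.57% of all genes tested), swimming 4 (2.7%), swimming 5 (2.3%) or swimming 6 (2.72%).

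**Figure D2:**
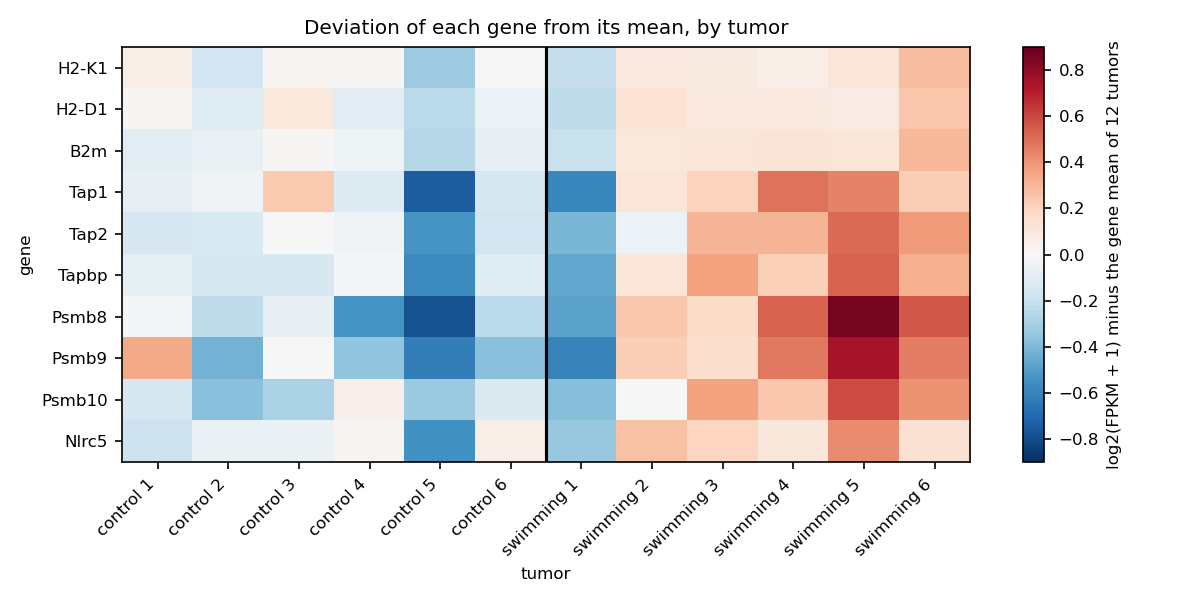
Each cell is the log2(FPKM + 1) of a gene in a tumor relative to its own mean over the 12 tumors, in red for values above the mean and blue for values below, and a black line parts control from swimming tumors. Control 5 and swimming 1 are blue in all 10 genes, and swimming 3 to 6 are red in all 10.

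The levels of the 10 genes spanned more than 2 orders of magnitude in FPKM, which is a value per gene length. B2m was the most abundant, with a mean of 1837 FPKM over the 12 tumors (percentile 99.9 of the genes tested), followed by H2-D1 at 705 FPKM. Their ranges overlapped neither with each other nor with those of the other genes. Tapbp (86.7 FPKM) and H2-K1 (79.0 FPKM) came next and could not be ordered, as Tapbp was above H2-K1 in 7 of the 12 tumors. Psmb8 (49.3 FPKM), Psmb10 (42.0 FPKM), Tap2 (28.6 FPKM), Psmb9 (18.97 FPKM), Tap1 (14.2 FPKM) and Nlrc5 (10.1 FPKM) followed, each with a range that overlapped that of its neighbor. Within a tumor, however, Psmb10 was above Tap2, Tap2 above Psmb9 and Tap1 above Nlrc5 in 12 of 12 tumors. Nlrc5, the transactivator, was the least abundant and still at percentile 71.9 of the genes tested.

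**Figure D3:**
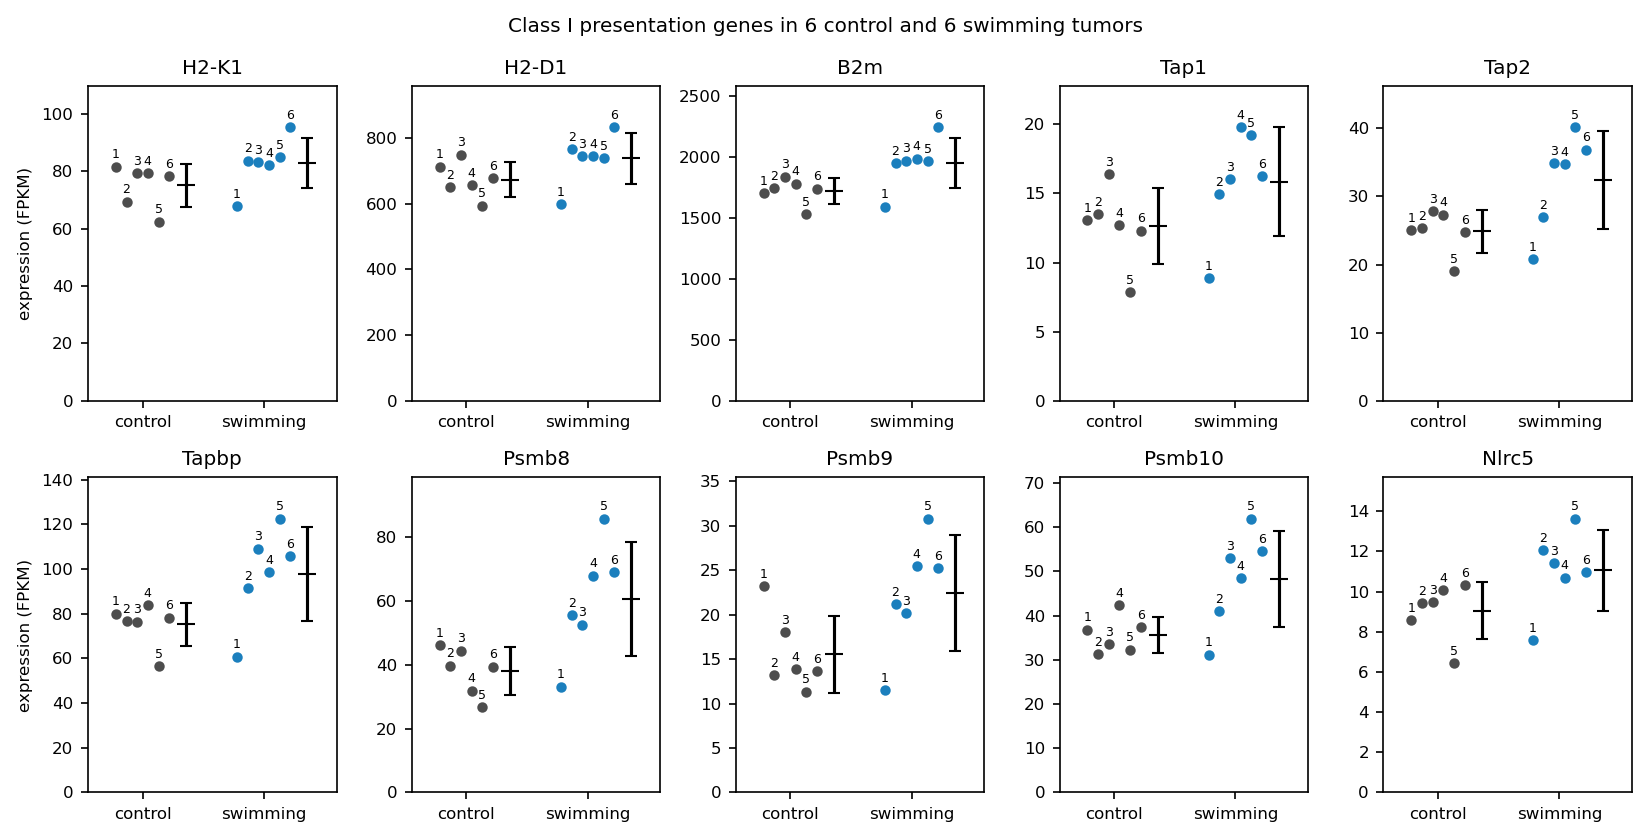
FPKM of the 10 genes is plotted per tumor in a panel for each gene, with the tumor number beside each point and the group mean and SD as a bar. Swimming 1 is the lowest swimming tumor in each panel.

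The heavy chains and B2m form the class I molecule itself. H2-K1 (ENSMUSG00000061232, chr17:33996017-34000347, minus strand, GRCm38) and H2-D1 (ENSMUSG00000073411, chr17:35262730-35267499, plus strand) encode classical heavy chains, and B2m (ENSMUSG00000060802, chr2:122147686-122153083, plus strand) encodes the light chain that every class I molecule shares. Their promoters are shown because NLRC5 is known to act with factors bound at paired X and Y elements of class I promoters. Each sequence below holds the 250 bases before the start of the gene in RefSeq on GRCm38.p6, read 5′ to 3′ on the strand of the gene, and capitals mark TGACG and, 20 bases further on, ATTGG.
H2-K1, chr17:34000348-34000597, minus strand: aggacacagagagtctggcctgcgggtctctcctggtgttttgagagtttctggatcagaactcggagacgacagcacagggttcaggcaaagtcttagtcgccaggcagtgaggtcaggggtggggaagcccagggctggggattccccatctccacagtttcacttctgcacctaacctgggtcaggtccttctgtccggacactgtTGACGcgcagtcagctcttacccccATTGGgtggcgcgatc
H2-D1, chr17:35262844-35263093, plus strand: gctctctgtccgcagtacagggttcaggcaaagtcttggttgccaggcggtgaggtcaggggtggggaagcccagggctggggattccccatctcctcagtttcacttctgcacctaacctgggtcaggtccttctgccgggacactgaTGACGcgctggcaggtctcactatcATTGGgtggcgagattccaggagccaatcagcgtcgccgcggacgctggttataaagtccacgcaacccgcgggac
B2m, chr2:122147437-122147686, plus strand: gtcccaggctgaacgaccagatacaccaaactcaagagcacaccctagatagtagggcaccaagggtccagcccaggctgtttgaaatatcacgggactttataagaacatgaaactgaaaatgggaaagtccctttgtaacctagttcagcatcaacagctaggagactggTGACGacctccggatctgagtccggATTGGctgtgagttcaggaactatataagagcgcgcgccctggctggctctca

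The spacing of 20 bases was the same in the 3 promoters. Relative to the start annotated in RefSeq, the last base of ATTGG lay at position -12 in H2-K1, -72 in H2-D1 and -49 in B2m. Whether transcription starts at these annotated positions was not tested, so the 3 positions are not compared. Windows of 300 bases (250 before and 50 after the start) were given for 8 of the 10 genes, and this pair was present in 3 of the 8 and in 26 of 27025 windows of all genes (0.0962%), searched on both strands. The pair was written down after these windows had been read, so its share among the 8 is a description. ATTGG alone was in 6 of the 8 and in 37.9% of all windows, and TGACG alone in 5 of the 8 and in 21% of all windows. AANNGAAA, which overlaps the next motif, was in H2-K1, H2-D1 and B2m (24.2% of all windows). GAAA followed after any 2 bases by another GAAA was in B2m (3.49% of all windows). Among the other 17 genes tested whose window held the pair of TGACG and ATTGG, 9 had a log2 fold change above 0, with a median of 0.01. The nonclassical class I gene H2-M3 was higher and the clock gene Per1 lower at an unadjusted p below 0.05 (limma).

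The 3 genes of the class I molecule had the smallest differences of the 10. B2m ranged from 1530 to 1839 FPKM in control tumors with a median of 1742, and from 1594 to 2245 FPKM in swimming tumors with a median of 1968. All swimming tumors but swimming 1 were above the highest control tumor. The mean was 1723 ± 105 FPKM (SD, n = 6) in control and 1952 ± 208 FPKM in swimming tumors, a log2 fold change of 0.18 with a standard error of 0.085 (95% interval -0.01 to 0.36, unadjusted p = 0.0605, adjusted p = 0.889 in limma, two-sided exact permutation p = 0.0433).

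H2-K1 showed the same separation at a smaller size. Its control tumors lay between 62.5 and 81.6 FPKM with a median of 78.8, and its swimming tumors between 67.9 and 95.4 FPKM with a median of 83.4. The log2 fold change was 0.14 ± 0.083 (SE, 95% interval -0.04 to 0.32, unadjusted p = 0.116 in limma, exact permutation p = 0.13). H2-D1 was between 594 and 749 FPKM in control tumors (median 667) and between 599 and 833 FPKM in swimming tumors (median 744.5), and 2 of the 6 swimming tumors were above every control tumor. Its log2 fold change was 0.13 ± 0.081 (SE, 95% interval -0.05 to 0.30, unadjusted p = 0.138 in limma, exact permutation p = 0.139). The reference genome carries the b haplotype of the MHC and BALB/c mice the d haplotype, which also has an H2-L gene, and how far reads of these polymorphic heavy chains were lost or shared between paralogs was not tested.

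Other class I heavy chains, most of them nonclassical, also had higher means in swimming tumors. Of 13 tested from a list of 15, 12 had a log2 fold change above 0 with a median log2 fold change of 0.23. At an unadjusted p below 0.05, 4 of the 13 and 3.11% of all genes tested were higher (limma). H2-T22, a ligand of some gamma delta T cells, was 38.9 ± 3.29 FPKM in control and 46.8 ± 6.19 in swimming tumors (log2 fold change 0.25, unadjusted p = 0.0157 in limma). H2-M3, which presents formylated bacterial peptides, was 30.1 ± 3.07 and 35.5 ± 3.93 FPKM (log2 fold change 0.23, unadjusted p = 0.0189 in limma). H2-Q4, the most abundant of the list, was 168 ± 19.4 and 193 ± 18.4 FPKM (log2 fold change 0.21, unadjusted p = 0.0368 in limma), and H2-Q1 had a log2 fold change of 0.23 (unadjusted p = 0.0398 in limma). H2-Q2 had the largest difference, 0.50 on the log2 scale, at a level near 1 FPKM (unadjusted p = 0.0643 in limma). The adjusted p of these 5 genes was 0.889, and as paralogs they share sequence with each other and with H2-K1 and H2-D1.

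The peptide transporter and its anchor come next on the way to the loaded molecule. Tap1 (ENSMUSG00000037321, chr17:34187553-34197225, plus strand), Tap2 (ENSMUSG00000024339, chr17:34203527-34216321, plus strand) and Tapbp (ENSMUSG00000024308, chr17:33915899-33929292, plus strand) lie in the MHC. Psmb9 and Tap1 stand head to head, and their exons overlap on opposite strands, as do those of Tap2 and Gm20496, while Zbtb22 overlaps Tapbp on the same strand. Whether reads were counted by strand is not given in the sources used here, so some reads of such pairs may have been put to either gene. The 300-base windows of Tap1 and Psmb9 share 275 bases. The 250 bases before the start of Tap1 are therefore shown as the shared promoter region, with capitals for CCAAT, the complement of ATTGG, and for TGACG.
Tap1, chr17:34187306-34187555, plus strand: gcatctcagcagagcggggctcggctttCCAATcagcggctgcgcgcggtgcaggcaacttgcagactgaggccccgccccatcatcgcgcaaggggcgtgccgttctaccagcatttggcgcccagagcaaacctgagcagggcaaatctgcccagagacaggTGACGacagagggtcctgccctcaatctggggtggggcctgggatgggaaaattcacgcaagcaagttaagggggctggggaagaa

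Of the 3 genes, Tapbp and Tap2 were higher in the swimming group at an unadjusted p below 0.05. Tapbp was between 56.4 and 84.0 FPKM in control tumors with a median of 77.5, and between 60.9 and 122.6 FPKM in swimming tumors with a median of 102.1. Control 5 and swimming 1 stood far below the other tumors of their groups, and the other 5 swimming tumors were above every control tumor. The mean was 75.3 ± 9.65 FPKM in control and 98.0 ± 21.0 FPKM in swimming tumors (SD, n = 6), with a log2 fold change of 0.35 ± 0.147 (SE, 95% interval 0.04 to 0.67, unadjusted p = 0.0313, adjusted p = 0.889 in limma, exact permutation p = 0.0584).

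Tap2 encodes one chain of the transporter. It was between 19.01 and 27.9 FPKM in control tumors (median 25.2) and between 20.7 and 40.1 FPKM in swimming tumors (median 34.8), and 4 of the 6 swimming tumors were above every control tumor. Its log2 fold change was 0.34 ± 0.144 (SE, 95% interval 0.03 to 0.66, unadjusted p = 0.0321 in limma, exact permutation p = 0.0433). Tap1, the other chain, was between 7.86 and 16.4 FPKM in control tumors (median 12.9) and between 8.86 and 19.8 FPKM in swimming tumors (median 16.1). Swimming 4 and swimming 5 alone were above control 3, the highest control tumor. The log2 fold change of Tap1 was 0.29 ± 0.184 (SE, 95% interval -0.10 to 0.69, unadjusted p = 0.134 in limma, exact permutation p = 0.188), and the interval included 0.

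The other genes of peptide loading and trimming differed less. All 5 had a log2 fold change above 0, with a median of 0.03, and 0 had an unadjusted p below 0.05 (limma). Calr, the chaperone calreticulin and the most abundant of the list, was 323 ± 20.7 FPKM in control and 328 ± 34.3 FPKM in swimming tumors. Tapbpl, a relative of tapasin that edits peptides, had the largest log2 fold change of the list, 0.25 (13.1 ± 1.599 and 15.9 ± 3.21 FPKM, unadjusted p = 0.0702 in limma).

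The immunoproteasome subunits had the largest differences of the 10 genes. Psmb8 (ENSMUSG00000024338, chr17:34197721-34201454, plus strand) and Psmb9 (ENSMUSG00000096727, chr17:34181987-34187764, minus strand) lie beside Tap1 and Tap2 in the MHC, the 4 genes together spanning 34335 bases, and Psmb10 (ENSMUSG00000031897, chr8:105935735-105938444, minus strand) lies on another chromosome. In control tumors 1 to 6 Psmb8 was at 46.1, 39.7, 44.4, 31.9, 26.7 and 39.4 FPKM. In swimming tumors 1 to 6 it was at 33.0, 55.4, 52.5, 67.8, 85.7 and 69.0 FPKM. Swimming 2 to 6 were above every control tumor, and swimming 1 was among the lower control tumors. The mean was 38.0 ± 7.44 FPKM in control and 60.6 ± 17.9 FPKM in swimming tumors (SD, n = 6), a fold of 1.59, with a log2 fold change of 0.62 ± 0.199 (SE, 95% interval 0.20 to 1.05, unadjusted p = 0.00779, adjusted p = 0.889 in limma, exact permutation p = 0.0238).

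Psmb10 was at 36.8, 31.3, 33.5, 42.3, 32.3 and 37.4 FPKM in control tumors 1 to 6. It was at 31.2, 41.0, 52.9, 48.5, 61.9 and 54.6 FPKM in swimming tumors 1 to 6. Swimming 3 to 6 were above every control tumor, swimming 2 was just below control 4, and swimming 1 was the lowest of the 12. The mean was 35.6 ± 4.09 and 48.3 ± 10.9 FPKM, with a log2 fold change of 0.41 ± 0.139 (SE, 95% interval 0.11 to 0.71, unadjusted p = 0.0121 in limma, exact permutation p = 0.0346).

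Psmb9 was at 23.2, 13.2, 18.1, 13.9, 11.4 and 13.6 FPKM in control tumors 1 to 6 and at 11.5, 21.2, 20.2, 25.4, 30.8 and 25.2 FPKM in swimming tumors 1 to 6. Control 1 stood above the other control tumors and within the swimming range, so that 3 of the 6 swimming tumors were above every control tumor. The mean was 15.5 ± 4.34 and 22.4 ± 6.52 FPKM, with a log2 fold change of 0.48 ± 0.211 (SE, 95% interval 0.03 to 0.94, unadjusted p = 0.04 in limma, exact permutation p = 0.0758). A limma fit that blocked on the replicate number was run as an alternative, although same-numbered tumors are from different mice and were not taken as pairs. Its unadjusted p was 0.0319 for Psmb8, 0.0174 for Psmb10 and 0.0493 for Tap2, and 0.107 for Psmb9 and 0.0614 for Tapbp. In that fit 2.37% of all genes tested were higher at an unadjusted p below 0.05.

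The constitutive catalytic subunits, whose places the immunoproteasome subunits take, had no higher means of this size in the swimming group. Psmb5, the counterpart of Psmb8, was 98.7 ± 9.69 FPKM in control and 89.5 ± 5.01 FPKM in swimming tumors (log2 fold change -0.14, 95% interval -0.28 to 0.01, unadjusted p = 0.0676 in limma), and 0 of the 6 swimming tumors were above the control median. Psmb6, the counterpart of Psmb9, was 45.8 ± 2.75 and 45.2 ± 1.36 FPKM (log2 fold change -0.02, unadjusted p = 0.702 in limma). Psmb7, the counterpart of Psmb10, was 45.8 ± 2.92 and 46.4 ± 3.14 FPKM (log2 fold change 0.02, unadjusted p = 0.739 in limma).

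The ratio of each immunoproteasome subunit to its counterpart within a tumor does not depend on the scaling of the tumor. Psmb8 to Psmb5 was 0.392 ± 0.105 in control and 0.682 ± 0.219 in swimming tumors, and reached 1.01 in swimming 5, the only tumor of the 12 in which Psmb8 exceeded Psmb5. The log2 difference was 0.77 (two-sided exact permutation p = 0.0216, or 0.0519 after adjustment for 3 ratios), with 5 of the 6 swimming tumors above every control tumor. Psmb10 to Psmb7 was 0.781 ± 0.109 and 1.04 ± 0.214, a log2 difference of 0.40 (exact permutation p = 0.0346, adjusted 0.0519), again with 5 of the 6 above every control tumor. Psmb9 to Psmb6 was 0.339 ± 0.0865 and 0.494 ± 0.137, a log2 difference of 0.53 (exact permutation p = 0.0606, adjusted 0.0606). No ratio passed the adjusted threshold with all 12 tumors. Without swimming 1 the adjusted p was 0.00649 for Psmb8 to Psmb5 and for Psmb10 to Psmb7 and 0.0108 for Psmb9 to Psmb6, and without control 1 it was 0.0498 for each of the 3 (exact permutation tests).

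**Figure D4:**
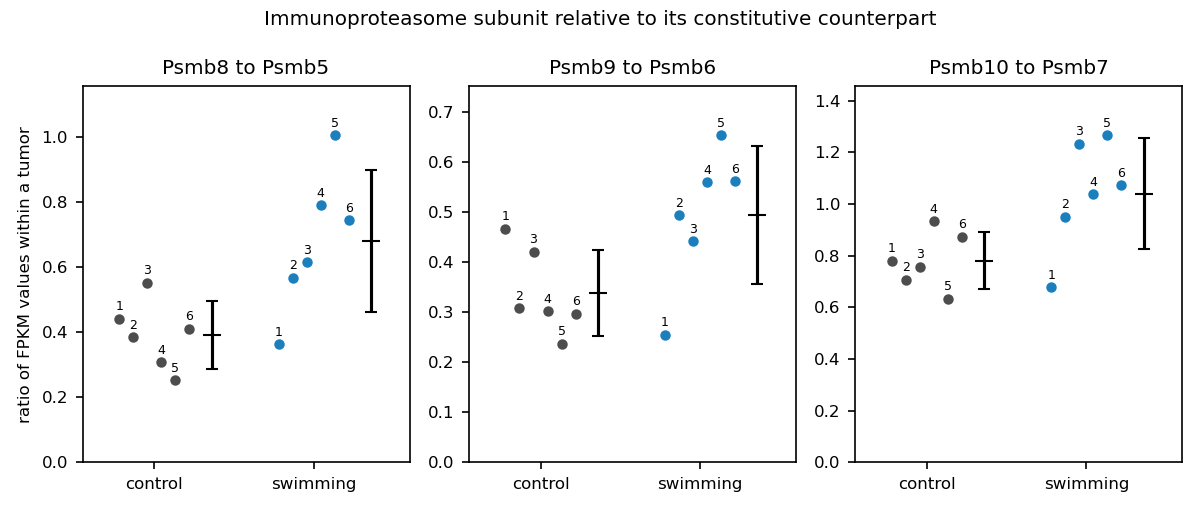
The ratio of the FPKM values of an immunoproteasome subunit and its constitutive counterpart is plotted for each tumor, with the tumor number above each point and bars for the group mean and SD (n = 6). The highest value of each panel belongs to swimming 5, and swimming 1 lies among the control tumors.

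The rest of the proteasome varied little between the groups. Of the 11 other core subunits, 8 had a log2 fold change above 0, the median was 0.02 and 0 had an unadjusted p below 0.05 (limma). Psmb1, the most abundant of them, was 162 ± 7.97 FPKM in control and 163 ± 13.5 FPKM in swimming tumors, and Psmb2 had the largest log2 fold change, 0.20 (unadjusted p = 0.093 in limma). Of 9 genes for proteasome activators and assembly factors, 1 was higher at an unadjusted p below 0.05 (3.11% of all genes tested). This was Psme2, a subunit of the interferon-induced PA28 activator, at 44.8 ± 4.85 and 56.6 ± 9.28 FPKM (log2 fold change 0.32 ± 0.108 SE, unadjusted p = 0.0111, adjusted p = 0.889 in limma, exact permutation p = 0.0303). Psme1, which encodes the other subunit of PA28, was 41.0 ± 3.89 and 46.9 ± 7.99 FPKM (unadjusted p = 0.13 in limma).

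Nlrc5 (ENSMUSG00000074151, chr8:94434356-94527272, plus strand) was between 6.45 and 10.3 FPKM in control tumors with a median of 9.44, and between 7.58 and 13.6 FPKM in swimming tumors with a median of 11.2. All swimming tumors but swimming 1 were above the highest control tumor. The mean was 9.05 ± 1.42 FPKM in control and 11.1 ± 2.004 FPKM in swimming tumors, with a log2 fold change of 0.26 ± 0.128 (SE, 95% interval -0.02 to 0.53, unadjusted p = 0.0645, adjusted p = 0.889 in limma, exact permutation p = 0.0974).

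Other regulators were read from lists of class I promoter factors and of interferon gamma signaling. Of 12 regulators of class I promoters, 8 had a log2 fold change above 0 with a median of 0.06. Rela, the p65 subunit of NF-kappa B, was 31.6 ± 2.41 FPKM in control and 31.4 ± 2.01 FPKM in swimming tumors. Of the 8 genes of interferon gamma signaling, 6 had a log2 fold change above 0 with a median of 0.17. Ifng, the cytokine itself, was at 0.367 ± 0.173 and 1.05 ± 0.583 FPKM (log2 fold change 0.55, unadjusted p = 0.00629, adjusted p = 0.889 in limma, exact permutation p = 0.0173), a low level at which log2(FPKM + 1) understates the difference.

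Across the 12 tumors Nlrc5 correlated with the other 9 genes, with Pearson's r from 0.73 to 0.93 on log2(FPKM + 1) and Spearman's rho from 0.69 to 0.90, the highest r being with Tapbp. The permutation p adjusted over the 19 relations computed was between 6e-05 and 0.00581, and between 0.00095 and 0.0172 for rho. Without control 5 and swimming 1, the tumors farthest from the median of Nlrc5, r was between 0.41 and 0.83, and the relations with Tap2, Tapbp, Psmb8 and Psmb10 kept an adjusted p below 0.05 while those with the other 5 genes did not. For these 5 genes r over the remaining 10 tumors was 0.47 for H2-K1, 0.41 for H2-D1, 0.61 for B2m, 0.58 for Tap1 and 0.52 for Psmb9, with adjusted permutation p between 0.0763 and 0.233. Within the control group r was between 0.22 and 0.91, and within the swimming group between 0.69 and 0.92, with 6 tumors each.

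**Figure D5:**
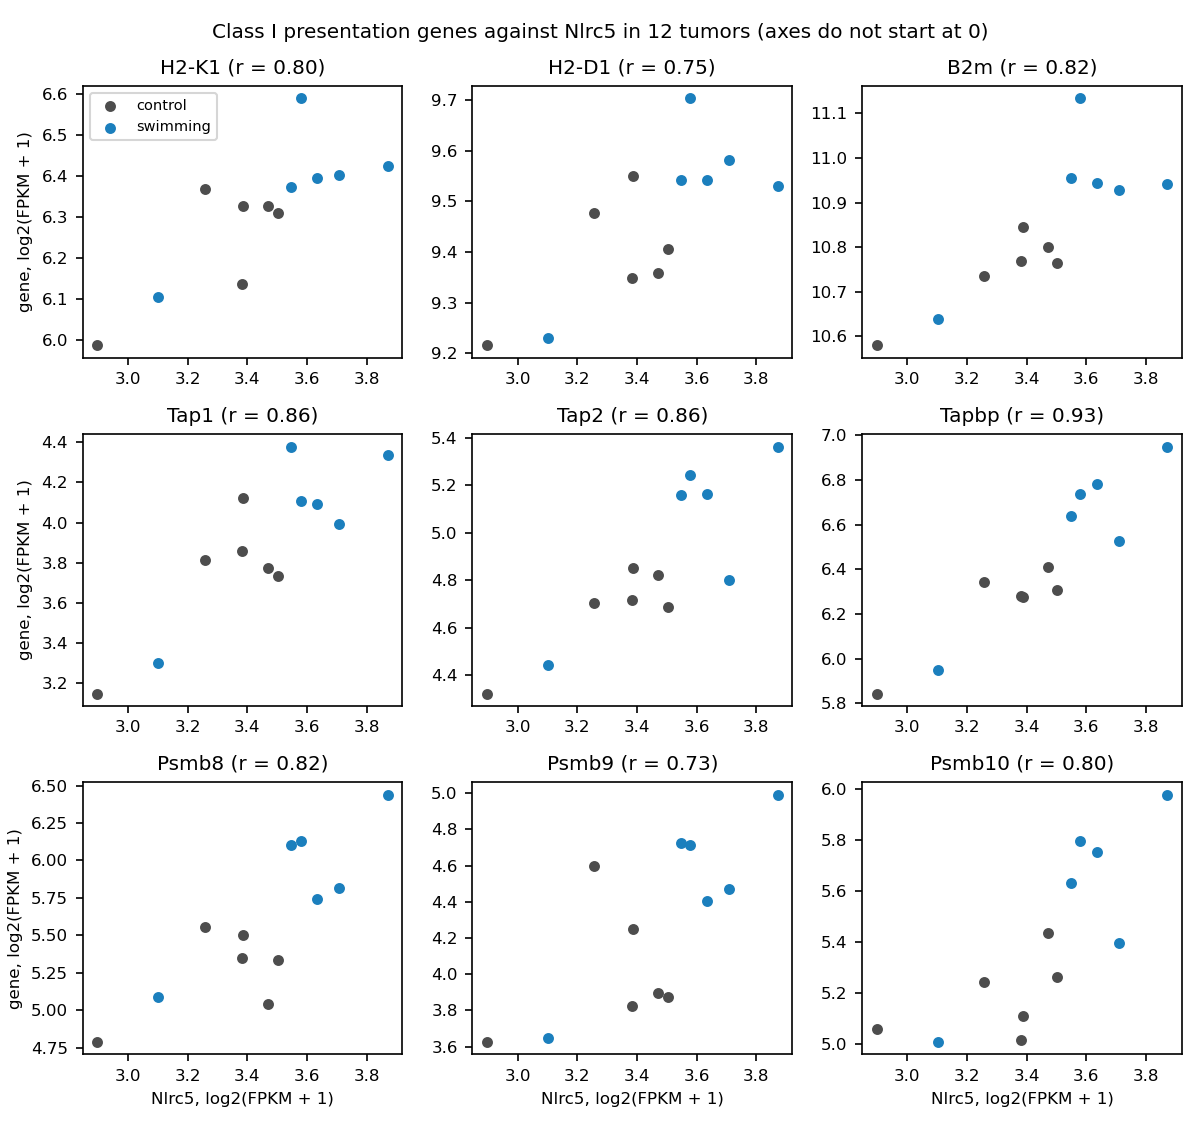
Each panel plots a gene against Nlrc5, both as log2(FPKM + 1), with a point for each of the 12 tumors, in gray for control and blue for swimming. Control 5 has the lowest Nlrc5, followed by swimming 1, and swimming 5 has the highest, and r ranges from 0.73 to 0.93.

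Among 12779 other genes with a mean of at least 1 FPKM, those closest to the mean profile of the 10 genes within the groups were Gm12250 (r = 0.97), Elf4 (r = 0.95), Apol6 (r = 0.95), Sp110 (r = 0.94) and Nmi (r = 0.94) over the 12 tumors. Gm12250, an interferon-inducible GTPase gene, was 7.24 ± 2.20 FPKM in control and 16.2 ± 8.68 FPKM in swimming tumors, while Elf4, which encodes an ETS transcription factor, was 10.5 ± 0.847 and 10.9 ± 0.931 FPKM. The likeness was measured on values with the group means removed and is a description.

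Markers of T cells were higher on average in swimming tumors as well. Of 9 T cell markers, 9 had a log2 fold change above 0 with a median of 0.48. Cd3d, Cd3g, Cd8a, Cd8b1, Trac and Trbc2 were higher at an unadjusted p below 0.05, as were 3.11% of all genes tested (limma). The summed level of the 9 T cell markers ranged from 6.01 to 17.4 FPKM in control tumors and from 12.2 to 27.5 FPKM in swimming tumors. Within its group it was lowest in control 5 and in swimming 1, as the sum of the 10 presentation genes was. The order of the tumors otherwise differed. Swimming 1 was above control 2, 4, 5 and 6 in the T cell sum, but above control 5 alone in the presentation sum. Control 4 (6.94 FPKM) and control 6 (7.82 FPKM) were near control 5 (6.01 FPKM) in the T cell sum. Their presentation sums were 2738 and 2712 FPKM, against 2346 FPKM in control 5. Having the lowest sums in control 5 and swimming 1 was not particular to T cells. Natural killer cell markers, dendritic cell markers and Ptprc had their lowest sums in the same tumors. So did the other class I heavy chains, the class I promoter regulators and the interferon gamma signaling genes. For dendritic cell markers swimming 1 (4.40 FPKM) was barely below swimming 4 (4.45 FPKM). The remaining marker lists were not lowest in both of these tumors. Cd8a, the coreceptor of T cells that read class I, was 1.47 ± 0.710 and 2.80 ± 1.19 FPKM, and Cd247 was below 0.5 FPKM in every tumor. The part of T cells in the levels of the 10 genes was not tested.

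Of 5 natural killer cell markers all 5 had a log2 fold change above 0. Klrk1 alone was higher at an unadjusted p below 0.05, as were 3.11% of all genes tested (limma). The summed levels were 1.38 to 3.33 FPKM in control tumors and 1.52 to 4.85 FPKM in swimming tumors. Klrb1c and Klre1 were below 0.5 FPKM in every tumor. Of 6 dendritic cell markers, 4 had a log2 fold change above 0 and 2 below, and the sum was 3.45 to 5.23 and 4.40 to 7.09 FPKM. Flt3 and Xcr1 were higher at an unadjusted p below 0.05, as were 3.11% of all genes tested (limma). Xcr1, a marker of cross-presenting dendritic cells, was 0.212 ± 0.0292 and 0.523 ± 0.255 FPKM, a low level that stayed below 1 FPKM in every tumor. It was higher in all 6 swimming tumors than in any control tumor, as were 0.0789% of all genes tested. Clec9a, which marks the same cells, was 0.364 ± 0.231 and 0.352 ± 0.145 FPKM, and Zbtb46, a transcription factor of dendritic cells, was 1.16 ± 0.196 and 1.12 ± 0.105 FPKM. Ptprc, carried by all leukocytes, was 3.74 ± 0.462 and 4.67 ± 1.00 FPKM (unadjusted p = 0.0519 in limma). The 8 macrophage markers summed to 578 to 872 FPKM in control tumors and 682 to 1015 FPKM in swimming tumors, and 0 had an unadjusted p below 0.05. Markers of endothelium (21.4 to 36.4 and 22.2 to 33.6 FPKM), fibroblasts (151 to 499 and 181 to 488 FPKM), skeletal muscle (1.25 to 143 and 1.06 to 208 FPKM), B cells (0.178 to 3.90 and 0.180 to 0.603 FPKM) and colon epithelium (135 to 323 and 119 to 168 FPKM) had 0 genes at an unadjusted p below 0.05. Of the 5 colon epithelial markers tested, 4 had a log2 fold change below 0 and 1 above. Krt20, the most abundant, was 154 ± 32.2 FPKM in control and 125 ± 19.1 FPKM in swimming tumors (log2 fold change -0.29, unadjusted p = 0.0607 in limma). Krt8 had the largest difference of that list (log2 fold change -1.09, unadjusted p = 0.168 in limma). Control 4 stood apart in Krt8 at 129 FPKM. The other control tumors were at 1.86 to 19.9 FPKM and the swimming tumors at 1.95 to 14.9 FPKM. Control 4 also had the highest sum of the colon epithelial markers, 323 FPKM. The B cell markers Ms4a1 and Pax5 were below 0.5 FPKM in every tumor, and how far any of these cell types bears on the 10 genes was not tested.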

How the data were processed

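Total RNA of 12 CT-26 tumors was depleted of ribosomal RNA and sequenced. The authors trimmed the reads, mapped them with HISAT2 2.0.5 and deposited FPKM per gene from StringTie 1.3.3. The methods name hg38 and the submitters' processing notes also list GRCm38, while the identifiers are those of mouse genes. Coordinates are from GENCODE M21 on GRCm38, matched by identifier, and GENCODE M21 named 30578 of the 30630 genes. Promoter sequences are from RefSeq on GRCm38.p6, matched by symbol for 8 of the 10 genes. How StringTie divided reads between overlapping genes and paralogs is part of the deposited FPKM values.

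FPKM divides by gene length and library size, so no counting error could be given. The sample labels gave the groups, and all tumors were used. Expression was compared on log2(FPKM + 1), which understates differences of low genes, for genes at 0.1 FPKM or more in 6 or more tumors. The fit used limma 3.58.1 in R 4.3.3 (lmFit, then eBayes with its trend option) and Benjamini-Hochberg adjustment over all 19018 genes. Exact permutation tests were two-sided over 924 ways to split the tumors 6 to 6, so that no p below 0.00216 is possible. The 3 subunit ratios were adjusted together, as were 19 correlations across tumors (100000 permutations, smallest p 1e-05). The comparison was tested on simulated data. Python 3.11.15, pandas 2.3.3, scipy 1.17.1 and matplotlib 3.10.9 were used for the rest.

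The 10 genes, the pathway lists and the marker lists were chosen with earlier results of these data known. Genes named are the 10 genes, the 3 constitutive subunits, the genes of each other list at an unadjusted p below 0.05, its most abundant gene and the gene with its largest log2 fold change, and the 5 genes most like the 10. Psme1, H2-M3 and Per1 beside the promoters, Clec9a, Zbtb46, marker genes named as absent or present, and neighbors in the MHC were named after their values were seen. Of 10 colon epithelial markers 9 were used here, and 1 regulator with its correlations is not reported here. Alternatives were pseudocounts of 0.1 and 0.01, no filter, a filter of 1 FPKM, quantile normalization, scaling by the median ratio, eBayes without trend, array weights, a replicate block, and fits without each single tumor.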

Additional observations from a re-analysis of the deposited data

Results flagged for a closer look

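Of 64 groups of 6 tumors examined for a single tumor far from the others by the gap to the nearest tumor over the range, 4 had such a tumor, where chance gives about 1 in 20, or 3.2. Tap2 in control 5 was at 19.01 FPKM, while the other control tumors were at 24.7 FPKM or more. Tapbp in control 5 was at 56.4 FPKM, with the other control tumors at 76.5 FPKM or more. H2-Q4, a class I heavy chain outside the 10 genes, was at 130.6 FPKM in control 5 and at 166.8 FPKM or more in the other control tumors. H2-T22, another such heavy chain, was at 34.8 FPKM in swimming 1 and at 47.0 FPKM or more in the other swimming tumors. In all 4 cases the tumor was the lowest of its group.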

How the results depend on the processing

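The log2 fold change stayed above 0 for all 10 genes under every alternative, 210 values in all, with adjusted p between 0.164 and 0.998 (limma). It ranged from 0.51 to 0.78 for Psmb8, from 0.38 to 0.65 for Psmb9 and from 0.33 to 0.52 for Psmb10. It ranged from 0.27 to 0.46 for Tap2, from 0.28 to 0.48 for Tapbp, from 0.18 to 0.44 for Tap1 and from 0.17 to 0.35 for Nlrc5. For B2m it was between 0.13 and 0.23, and for both H2-K1 and H2-D1 between 0.09 and 0.19. The count of the 10 genes higher at an unadjusted p below 0.05 was 5 (3.11% of all genes tested), and 3 with the replicate block (2.37%). With a pseudocount of 0.01, a filter of 1 FPKM or no trend it was 6. The gene added was B2m, with an unadjusted p of 0.0467, 0.0388 and 0.0377 in turn (limma). The share over all genes was not computed for these alternatives, so a count of 6 has no value to be read against. Same-numbered tumors are from different mice, and after removal of the group means they correlated between -0.32 and 0.00588, with 0 of 6 pairs above 0.1, so the numbers were not taken as pairs. On leaving out a tumor the count was between 2 (without control 5 or swimming 3, 4, 5 or 6, where 2.12% to 2.72% of all genes tested were higher at that p) and 10 (without swimming 1, 4.53%). The other pathway lists held 3 constitutive subunits, 11 other core subunits, 9 activators and assembly factors and 5 loading and trimming genes tested. They also held 13 other heavy chains, 12 promoter regulators and 8 interferon gamma signaling genes tested, some of them on both of the last lists. The count of genes of these lists higher at an unadjusted p below 0.05 was 7 (limma), where 3.11% of all genes tested were higher. On leaving out a tumor it was between 5 and 17 (without swimming 1, where 4.53% of all genes tested were higher). The marker lists held 9 T cell, 5 natural killer cell, 6 dendritic cell, 8 macrophage, 1 leukocyte and 1 B cell genes tested. They also held 4 endothelial, 4 fibroblast, 4 skeletal muscle and 5 colon epithelial genes tested. The count of marker genes higher at that p was 9 with all tumors, where 3.11% of all genes tested were higher. On leaving out a tumor it was between 7 and 15 (without control 1, for which the share over all genes was not computed).

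On leaving out a tumor the log2 difference of the ratio was 0.65 to 0.94 for Psmb8 to Psmb5, 0.43 to 0.70 for Psmb9 to Psmb6 and 0.33 to 0.51 for Psmb10 to Psmb7. All 3 ratios passed the adjusted threshold without swimming 1 or control 1, and Psmb8 to Psmb5 also without control 3 (exact permutation tests). Of the 9 correlations with Nlrc5, all with an adjusted p below 0.05 over 12 tumors, 4 had one without the tumors farthest from the median, and 0 within the control group and 0 within the swimming group, each of 6 tumors. The cause of these differences between alternatives was not tested. Depth is unknown and limits mainly Ifng and the marker genes near or below 1 FPKM.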

Other observations

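The genes around the MHC members of the pathway were read as a group. Tapbp and H2-D1 bound an interval of 1351601 bases on chromosome 17 (chr17:33915899-35267499, GRCm38) that holds 7 of the 10 genes and 89 other genes tested. Of these 89, 50 had a log2 fold change above 0, with a median of 0.01, 14 were higher and 3 lower in the swimming group at an unadjusted p below 0.05, and 0 had an adjusted p below 0.05 (limma). Over all genes tested, 3.11% were higher and 2.46% lower at that unadjusted threshold. Class II genes, which serve presentation to CD4 T cells, made up 7 of the 14, with log2 fold changes of 0.51 for H2-DMa, 0.66 for H2-DMb2, 0.89 for H2-DMb1, 1.02 for H2-Ab1, 1.02 for H2-Aa, 1.16 for H2-Eb1 and 1.18 for H2-Ea-ps. H2-Ea-ps is named as a pseudogene on the b haplotype reference, and its state in the d haplotype of BALB/c was not tested. The cytokine genes Tnf (0.43) and Ltb (0.51) and the inducible heat shock genes Hspa1a (0.67) and Hspa1b (0.76) were also among the 14. Gm20496, which overlaps Tap2 and Psmb8, had a log2 fold change of 0.32, and which of these genes its reads came from was not tested. The 3 lower genes were Wdr46 (-0.12), H2-Ke6 (-0.17) and Atf6b (-0.12).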
